A study of Mus musculus with 10 samples.

Results

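Replication-dependent histone genes encode the histones on which newly copied DNA is wound. H2A, H2B, H3 and H4 form the core of the nucleosome and H1 binds the linker DNA between nucleosomes. These genes are switched on in S phase, lie in clusters and have many near-identical copies. Their mRNA is the main class of animal mRNA that ends without a poly(A) tail. It is cut just after a short stem-loop, which is bound by the stem-loop binding protein Slbp, although some of the genes also give polyadenylated mRNA in cells that do not divide.

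The histone genes described here are all symbols of the deposited expression table that start with Hist1h, Hist2h, Hist3h or Hist4h. They comprised 67 of the 24394 symbols and 79 of the 34943 rows with a symbol, with all rows of a symbol summed. The table held 66548 rows in all. Rows without a symbol were not used, so any histone RNA counted in them is missing from the levels given here. There were 6 H1, 18 H2A, 18 H2B, 12 H3 and 13 H4 genes. RNA was sequenced from lung of female BALB/c mice, which were 8 weeks old at purchase. The controls were given saline (Saline, n = 3). Mice of the OVA group (n = 3) were sensitised with ovalbumin in alum by intraperitoneal injection and then challenged intranasally with ovalbumin, and mice of the Herb group (n = 4, called DSE in the study) went through the same ovalbumin protocol and were given an ethanol extract of *Descurainia sophia* seeds. No allele or transgene was involved. The libraries held an estimated 14700000 to 29400000 mapped fragments each. Values are FPKM, fragments scaled to the length of a transcript and to the mapped fragments of its library. Whole lung holds many cell types, so fewer cells of a type and less RNA per cell cannot be told apart.

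The libraries differed in what else they held, and this touches every level given below. The share of fragments that fell on protein-coding transcripts was estimated as 33.1% to 33.4% in Saline, 11.9% to 14.9% in OVA and 19.4% to 25.8% in Herb. The estimate covers only RefSeq mRNA rows with a symbol and a matched GENCODE length. Rn45s, the ribosomal RNA precursor, was listed at 1201 to 1386 FPKM in Saline, 10014 to 13531 in OVA and 3230 to 7019 in Herb. FPKM share out the fragments of a library, and over all 11205 genes tested the median log2 fold change was -0.75 in OVA vs. Saline, 0.48 in Herb vs. OVA and -0.27 in Herb vs. Saline. The part of these shifts in the levels of single genes was not tested, so fold changes are also read against the median of all genes and after scaling each library to its 75th percentile. The 7 lung markers were above 0 in every library, with summed levels of 16890 to 26463 FPKM in Saline, 2877 to 5449 in OVA and 8477 to 13632 in Herb. The summed level of 4 erythroid markers was 5731 to 6965, 30.9 to 561 and 1075 to 1582 FPKM, and that of 16 immune cell markers was 147 to 621, 86.8 to 282 and 445 to 631 FPKM. The immune sum rested largely on Chil3 (71.0 to 163, 69.7 to 256 and 320 to 593 FPKM) and S100a9 (0 to 416, 0 to 0.952 and 0 to 60.7 FPKM). Its members moved unlike each other. Mean Itgax and Prg2 were higher in OVA than in Saline (13.8 against 6.68 and 1.26 against 0 FPKM). Mean Ptprc and Cd3e were lower (0.318 against 0.907 and 0.693 against 2.83 FPKM), so the sum is not a measure of immune cell number. The part of blood and immune cells in the histone levels was not tested.

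The stem-loop marks these genes as a class. It was searched, as the histone stem-loop, on the sense strand of the GENCODE vM21 transcript models. The pattern was fixed, and the stem had to start GG, then C or T, then C or T, then C. Stems of other forms could not be found. In the histone genes only the part after the coding end was searched, and 44 of the 67 held the stem-loop. In all 21877 protein-coding genes the whole transcript was searched, and 48 (0.219%) held it, of which 44 were histone genes of this set. The other 4 were H2afx, H2bfm, Syncrip and Trim17, and where in their transcripts the match lay was not checked. In 18 of the 23 histone genes without a match, the longest model had fewer than 60 bases after the coding end. The sites below are those of the genes on which the results turn, taken from GRCm38 (mm10) and printed on the strand of the gene, with the stem-loop in capitals and 5 flanking bases on each side.
Hist1h4d, chr13:23581945-23581970, plus strand: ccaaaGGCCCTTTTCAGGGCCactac
Hist1h4c, chr13:23698084-23698109, minus strand: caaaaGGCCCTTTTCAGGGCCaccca
Hist1h4h, chr13:23531453-23531478, plus strand: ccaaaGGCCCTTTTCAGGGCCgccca
Hist4h4, chr6:136803993-136804018, minus strand: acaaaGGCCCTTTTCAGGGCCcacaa
Hist2h4, chr3:96262934-96262959, minus strand: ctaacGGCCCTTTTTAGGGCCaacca
Hist1h1c, chr13:23739507-23739532, plus strand: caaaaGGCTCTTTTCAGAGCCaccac
Hist1h1d, chr13:23555782-23555807, plus strand: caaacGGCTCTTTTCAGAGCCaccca
Hist1h1e, chr13:23621777-23621802, minus strand: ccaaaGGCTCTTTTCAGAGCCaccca

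Among the forms that the search pattern allowed, the stem followed the family. All 11 H4 genes with a match carried a stem that starts GGCCC or GGTCC, and the 33 matches in H1, H2A, H2B and H3 genes all started GGCTC. The commonest form, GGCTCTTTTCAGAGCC, was found in 26 genes and the commonest H4 form, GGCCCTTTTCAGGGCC, in 7. The stem-loop began 24 to 61 bases after the last coding base, with the stop codon counted in, and the median was 34. In 41 of 42 histone genes with a match and a single RefSeq model, that model ended within 10 bases of the stem-loop, the exception being Hist1h3e. A longer GENCODE model with more than 100 bases after the stem-loop existed for 22 of the 44 genes, among them Hist1h4d, Hist4h4, Hist1h1c and Hist1h1d. The RefSeq rows of nearly all of these genes thus stopped at the stem-loop.

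Of the 67 genes, 53 lay in the Hist1 cluster on chromosome 13 (chr13:21715711-23934913), 10 in the Hist2 cluster on chromosome 3, 3 in Hist3 on chromosome 11, and Hist4h4 stood alone on chromosome 6. A total of 63 genes were above 0 in every library, Hist1h2aa was at 0 in all 10, and 61 passed the filter of a mean of at least 1 FPKM. The 12 genes with the highest means, led by Hist1h4d and Hist1h1c, held 63.8% of the summed mean level. The testis-type genes were near nothing, with Hist1h1t at 0 to 0.417 FPKM and Hist1h2ba at 0.0395 to 0.577 FPKM. In 46 of 66 genes with a coding model, at least 50% of the 76-base windows of the coding sequence, the length of a read, also occurred in another histone gene, and in 11 genes all windows did. The levels of such copies are uncertain one by one. None of the windows was shared in Hist4h4, Hist2h4, Hist2h2bb, Hist1h1a and Hist1h1b.

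The summed level of the histone genes fell into the order Saline, Herb, OVA, and the 3 groups did not overlap. It was 695, 1120 and 750 FPKM in Saline, 271, 429 and 410 FPKM in OVA and 562, 564, 458 and 641 FPKM in Herb. The group means were 855 ± 231 (SD, n = 3), 370 ± 86.4 (SD, n = 3) and 556 ± 74.9 (SD, n = 4), so OVA stood at 0.433 times Saline. As a share of the FPKM of protein-coding transcripts, the same sum was 0.521% to 0.759% in Saline, 0.692% to 0.81% in OVA and 0.572% to 0.744% in Herb, and these ranges overlap. The order of the summed levels was thus lost when the histone genes were set against other protein-coding RNA of the same library.

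**Figure D1:**
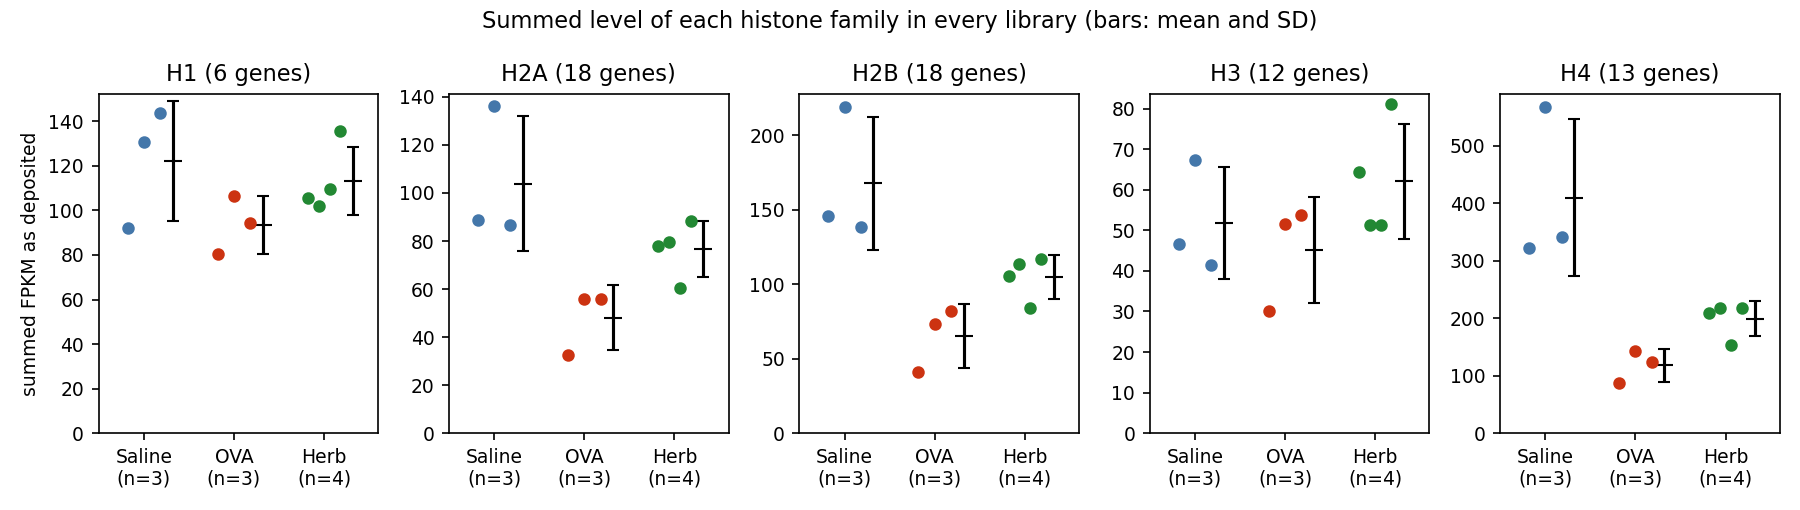
Summed FPKM of the H1, H2A, H2B, H3 and H4 genes (y axes, FPKM as deposited) in each library, by group (x axes); points are libraries and bars are the mean and SD of 3, 3 and 4 libraries. H4 fell furthest from Saline to OVA (409 to 118 FPKM), while H3 stayed within overlapping ranges (51.8 and 45.1 FPKM).

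The families did not move alike. H4, whose genes encode 1 and the same protein, stood at 321, 567 and 340 FPKM in Saline, 87.2, 142 and 124 in OVA and 208, 218, 153 and 218 in Herb. OVA was thus at 0.288 times Saline and Herb at 1.69 times OVA. H2B was at 0.389 times and H2A at 0.463 times the Saline mean in OVA, without overlap. H1 was at 92.0, 131 and 144 FPKM in Saline against 80.3, 106 and 94.2 FPKM for OVA, and H3 at 46.7, 67.3 and 41.3 FPKM and 30.0, 51.5 and 53.7 FPKM. For H1 and H3 the OVA and Saline ranges overlapped. This pattern was that of the values as deposited. Under the other 3 scalings OVA stood at 0.857 to 1.11 times Saline for H2B and 1.02 to 1.33 times for H2A, with overlap, and at 1.70 to 2.70 times for H1 and 1.86 to 2.50 times for H3, without overlap. H4 stood at 0.635 times without overlap after 75th percentile scaling, and at 0.836 and 0.924 times with overlap under the other pair.

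The make-up of the histone RNA, which scaling a library by 1 factor leaves unchanged (quantile normalization does not), differed too. H4 made up 46.3%, 50.6% and 45.4% of the histone FPKM in Saline, 32.2%, 33.2% and 30.3% in OVA and 37.1%, 38.6%, 33.4% and 34.0% in Herb. Every OVA library was below every Herb library, and every Herb library below every Saline library. H3 made up 5.51% to 6.72% in Saline, 11.1% to 13.1% in OVA and 9.09% to 12.7% in Herb, so Herb and OVA overlapped and both were above Saline. H1 made up 11.7% to 19.2% in Saline, 23.0% to 29.6% in OVA and 18.1% to 24.0% in Herb. H2A and H2B kept to 11.5% to 14.1% and 15.1% to 21.0% over all libraries. These shares are sums over chosen genes and were not tested.

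**Figure D2:**
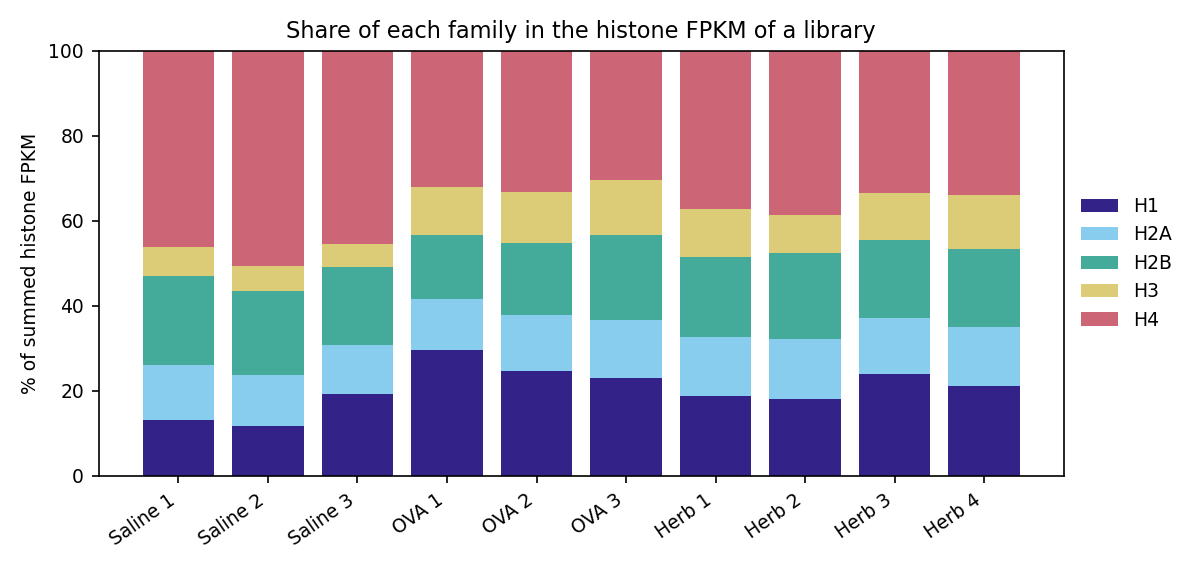
Share of the H1, H2A, H2B, H3 and H4 genes in the histone FPKM of each library (y axis, %; x axis, 10 libraries), stacked to 100%. The H4 share was 45.4% to 50.6% in Saline and 30.3% to 33.2% in OVA, and the H1 and H3 shares were larger in OVA than in Saline.

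The comparison of OVA with Saline shows the asthma model. By limma with Benjamini-Hochberg adjustment over all 11205 genes, 28 of the 61 histone genes tested were lower in OVA and 2 were higher at an adjusted p under 0.05, against 57.9% of all genes lower and 3.28% higher. The median log2 fold change was -0.72, beside -0.75 over all genes. By family, 9 of 12 H4, 10 of 15 H2B, 6 of 17 H2A, 2 of 12 H3 and 1 of 5 H1 genes fell. The medians were -0.999 for H4, -0.81 for H2B, -0.64 for H2A, 0.02 for H3 and 0.36 for H1, so 9 of 12 H4 genes lay below the median of all genes while 10 of 12 H3 and 4 of 5 H1 genes lay above it. Without overlap, 30 of 61 histone genes lay lower in OVA and 2 higher, against 7054 and 524 of all 11205 genes. Groups that do not overlap were thus common over all genes.

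The furthest falls were in 4 H4 genes and 1 H2B gene. Hist1h4d (NM_175654, chr13:23581568-23581969, plus strand), the histone gene with the highest mean level, was at 83.2, 132 and 89.7 FPKM in Saline, 17.8, 24.9 and 23.4 in OVA and 47.0, 48.0, 30.6 and 41.6 in Herb. The 3 groups did not overlap, and the log2 fold change in OVA vs. Saline was -2.14 ± 0.24 (SE, adjusted p = 0.000163 by limma). Hist4h4, the H4 gene outside the clusters, went from 52.0, 88 and 55.5 FPKM in Saline to 8.60, 16.2 and 12.3 in OVA, with Herb at 28.9, 33.5, 19.8 and 21.8. Its log2 fold change was -2.31 ± 0.30 (SE, adjusted p = 0.000217 by limma), and no 76-base window of its coding sequence is shared with another histone gene. Saline replicate 2 was the highest library for both genes, and for the H4 sum.

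Hist1h4h and Hist1h4c followed with log2 fold changes of -2.31 and -2.22, from 45.5, 88.3 and 47.2 FPKM and 47.4, 108 and 52.8 FPKM in Saline to 6.98, 15.3 and 11.6 FPKM and 10.8, 15.3 and 13.7 FPKM with OVA (adjusted p = 0.00038 and 0.000374 by limma). Both share over 50% of their windows with other H4 genes. Hist1h2bc, an H2B gene with 2 transcript rows, fell from 31.1, 42.8 and 27.5 FPKM to 5.68, 9.36 and 9.90 FPKM (log2 fold change -1.91, limma adjusted p = 0.000213). Its row NM_023422 went from 22.2, 27.4 and 20.3 FPKM to 1.45, 3.48 and 5.72 FPKM and its row NM_001290380 from 8.88, 15.4 and 7.16 FPKM to 4.23, 5.88 and 4.18 FPKM, so the rows differed in the size of the drop. After 75th percentile scaling, where 17.2% of all genes were lower, the histone genes called lower were these same 5, with log2 fold changes of -0.83 to -1.21. Under quantile normalization none of the 5 was called, with log2 fold changes of -0.28 to -0.67 and limma adjusted p of 0.0518 to 0.153.

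The other highly expressed genes fell by less. Hist1h1c, an H1 subtype found also in cells that do not divide, went from 52.2, 81.2 and 77.2 FPKM to 32, 40.0 and 35.2 FPKM, and Hist2h2bb, an H2B gene with no shared window, from 37.1, 49.0 and 38.7 FPKM to 13.4, 23.3 and 21.4 FPKM. Neither overlapped, and the log2 fold changes were -0.93 and -1.09 (limma adjusted p = 0.00263 and 0.00217). Both turned to 0.20 and 0.03 after 75th percentile scaling. Hist1h4n, an H4 gene with all windows shared, was called lower at -0.73 (limma adjusted p = 0.0239), from 30.1, 47.1 and 28.8 FPKM to 15.9, 22.1 and 23.8 FPKM. Its call was lost without Saline replicate 2 or OVA replicate 1 (limma adjusted p = 0.079 for each).

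Hist1h2be, an H2B gene with 3 transcript rows, went from 19.1, 53.0 and 26.5 FPKM in Saline to 5.19, 13.1 and 10.2 FPKM in OVA (log2 fold change -1.64, limma adjusted p = 0.00806). Hist2h2aa1 and Hist2h2aa2, whose coding sequences cannot be told apart by 76-base reads, divided their level unevenly between libraries. Hist2h2aa2 was at 17.3 FPKM beside 19.8 FPKM for Hist2h2aa1 in Saline replicate 1, and at 0.108 FPKM or less in the other 9. Their sum was 37.1, 58.0 and 40.7 FPKM in Saline, 10.96, 19.1 and 18.5 in OVA and 26.5, 28.0, 19.1 and 28.3 in Herb. The sum of the pair stood in the same order as H2A as a whole.

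Only Hist1h1d and Hist1h2ao were higher in OVA at the level of calls as deposited. Hist1h1d, a replication-dependent H1 subtype, was at 10.03, 11.2 and 14.4 FPKM in Saline, 16.2, 21.6 and 19.2 in OVA and 20.3, 15.9, 21.7 and 28.0 in Herb. Every OVA and Herb library was above every Saline library, with a log2 fold change in OVA vs. Saline of 0.64 ± 0.22 (SE, adjusted p = 0.0295 by limma). It was 1.73 after 75th percentile scaling (limma adjusted p = 0.00126), and the call as deposited was lost without Saline replicate 1 or 2 or OVA replicate 2 or 3 (adjusted p = 0.065 to 0.10). Hist1h2ao (log2 fold change 1.27, limma adjusted p = 0.0365) was at 0.145, 0.236 and 0.053 FPKM in Saline, or 3 or fewer estimated fragments in each library, against 0.977, 1.83 and 2.75 FPKM for OVA. Its call was lost without any one Saline library, and without OVA replicate 2 or 3 (adjusted p = 0.065 to 0.11). Its near-identical copy Hist1h2ap was not called, at 2.76 to 5.66 FPKM in Saline and 1.01 to 3.02 FPKM for OVA, and the sum of both was 4.34, 5.90 and 2.81 FPKM in Saline against 1.99, 4.05 and 5.76 FPKM for OVA, which overlap.

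The other H1 genes were not called as deposited, apart from Hist1h1c. Hist1h1e, an H1 subtype and the third highest histone gene, was at 26.4, 34.4 and 48.1 FPKM in Saline, 28.4, 36.0 and 32.2 in OVA and 34.5, 35.6, 35.8 and 41.4 in Herb, with overlapping groups (limma adjusted p = 0.614 in OVA vs. Saline). After 75th percentile scaling its log2 fold change was 1.00 (limma adjusted p = 0.00601). Hist1h1a and Hist1h1b, which encode further replication-dependent H1 subtypes, had Saline levels of 1.87 to 2.46 and 1.34 to 1.82 FPKM and OVA levels of 2.04 to 3.70 and 1.49 to 4.63 FPKM. Neither was called as deposited and both were higher after 75th percentile scaling (log2 fold changes 1.18 and 1.51, limma adjusted p = 0.00264 and 0.012).

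Of the 12 H3 genes, 2 fell as deposited (Hist1h3f and Hist1h3e, limma adjusted p = 0.01 and 0.0249) and none rose. After 75th percentile scaling 6 of 12 H3 and 4 of 5 H1 genes were higher in OVA, against 24.1% of all genes, and 15 histone genes were higher in all. Scaling to the summed FPKM of protein-coding transcripts gave 27 histone genes higher and 5 lower, where 37.8% and 8.81% of all genes were called, and quantile normalization gave 14 and 0, where 18.6% and 17.1% were called. Hist1h1d and Hist1h2ao were higher under all 4 scalings. Beside the rise of Hist1h2ao, a row of its copy Hist1h2ap went from 1.43 to 2.93 FPKM in Saline to 0 in every OVA library. The sum of both copies overlapped between the groups as deposited, so the rise of Hist1h2ao alone is uncertain.

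**Figure D3:**
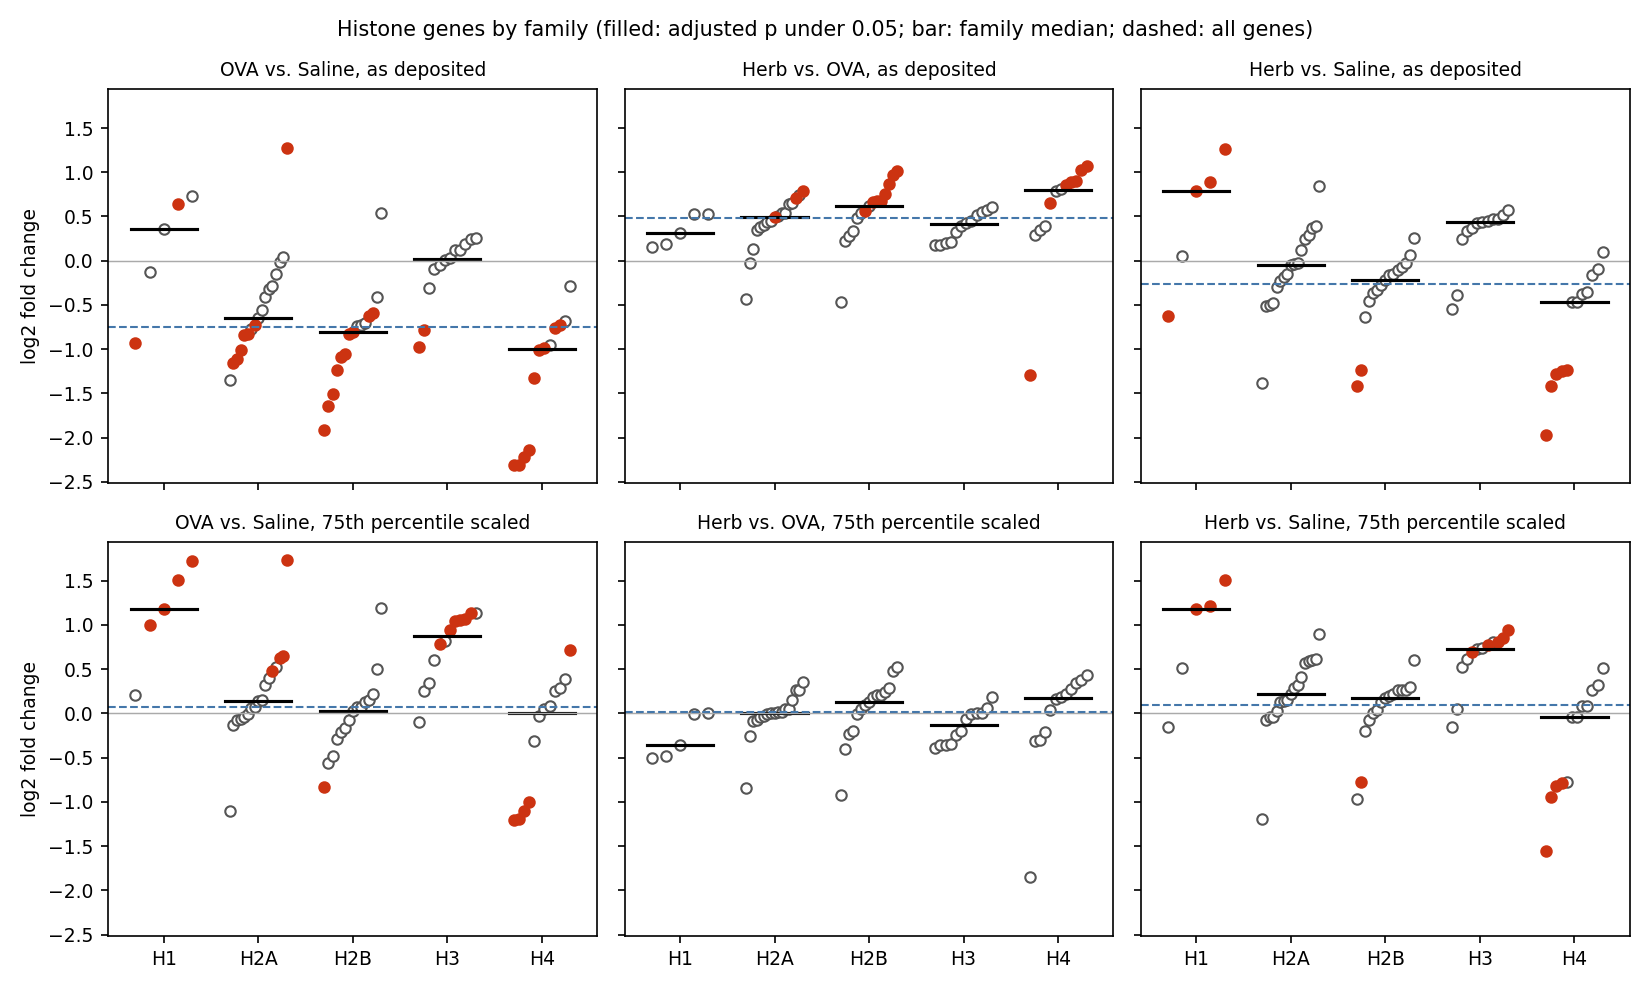
Log2 fold change (y axes) of the 61 histone genes tested, by family (x axes), in OVA vs. Saline, Herb vs. OVA and Herb vs. Saline, as deposited (top) and after 75th percentile scaling (bottom). Filled points have a limma adjusted p under 0.05, black bars are family medians and dashed lines the median of all genes, which moved from -0.75 to 0.07 in OVA vs. Saline, and 4 H4 genes and 1 H2B gene stayed called lower in both rows.

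A ratio of 2 genes within a library is likewise unchanged by 1 factor per library, though not by quantile normalization. The genes set against Hist1h4d were chosen after the values were seen, so the ratios are a description with no test. Hist1h4d was itself among the genes that fell furthest in OVA. A gene at a steady level thus has a higher ratio in OVA. The level of Hist1h1d was 0.121, 0.0849 and 0.161 times that of Hist1h4d in Saline, 0.908, 0.869 and 0.818 times in OVA and 0.432, 0.332, 0.707 and 0.672 times in Herb. The 3 groups did not overlap, with Herb between the others, and the same held for Hist1h1e (0.261 to 0.536, 1.37 to 1.59 and 0.734 to 1.17 times in Saline, OVA and Herb). For Hist1h1b (0.0138 to 0.0164, 0.0837 to 0.186 and 0.084 to 0.236 times) and for the H3 gene Hist1h3d (0.0249 to 0.0417, 0.133 to 0.217 and 0.085 to 0.137 times), OVA and Herb were both above Saline but overlapped each other. The ratio of Hist1h4c to Hist1h4d, 2 genes of 1 family, was 0.57 to 0.822 in Saline, 0.584 to 0.614 in OVA and 0.543 to 0.66 in Herb.

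The comparison of Herb with OVA shows the change under the extract. It shares the OVA libraries with the comparison above, so the directions are not independent of each other. As deposited, 17 of the 61 histone genes were higher in Herb and 1 was lower by limma adjusted p, against 44% of all genes higher and 0.446% lower. Their median was 0.52 on the log2 scale beside 0.48 over all genes. By family, 8 of 15 H2B, 6 of 12 H4 and 3 of 17 H2A genes rose, and no H1 or H3 gene was called in either direction. The furthest rises were in Hist1h4h (log2 fold change 1.07), Hist4h4 (1.02), Hist1h2bb (1.02), Hist1h2bm (0.97) and Hist1h4j (0.90), with limma adjusted p of 0.013 to 0.0232. Hist1h2bb, an H2B gene, was at 2.02, 3.15 and 4.19 FPKM in OVA and 7.20, 8.28, 4.70 and 9.17 FPKM in Herb, without overlap. In all, 21 of 61 histone genes lay higher in Herb without overlap and 1 lower, against 5555 and 73 of all 11205 genes.

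Neither the scaling nor the choice of libraries left these calls as they were. After 75th percentile scaling no histone gene was called in either direction, where 0.348% of all genes were higher and 0.455% lower, and 4 of the 61 histone genes had an unadjusted p under 0.05, as did 3007 of all 11205 genes. Quantile normalization and scaling to the protein-coding sum left 0 higher and 1 lower each, where 0.5% and 0.625% of all genes were higher and 0.91% and 4.92% lower. Without OVA replicate 1, the lowest OVA library for the histone sum, 4 histone genes were called higher, and without Herb replicate 1, Herb replicate 2 or Herb replicate 4 there were 8, 8 and 10 higher calls. The shares of all genes called without these libraries are not given, so the drop cannot be read as particular to histone genes. Of the 5 genes just named, only Hist1h4j stayed called without OVA replicate 1.

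Hist2h4, an H4 gene of the Hist2 cluster, was the only histone gene called lower in Herb vs. OVA as deposited. It was at 2.75, 12.3 and 11.8 FPKM in Saline, 4.08, 4.55 and 4.45 in OVA and 0.906, 1.24, 1.33 and 1.31 in Herb. Every Herb library was below every OVA and Saline library, on 5.93 to 10.9 estimated fragments per Herb library. The log2 fold change was -1.29 ± 0.39 in Herb vs. OVA and -1.97 ± 0.39 in Herb vs. Saline (SE, adjusted p = 0.0247 and 0.0111 by limma). After 75th percentile scaling these were -1.85 and -1.55 (limma adjusted p = 0.0593 and 0.0291). The call against OVA was lost without any one OVA library and without Herb replicate 1 or 2 (adjusted p = 0.052 to 0.063), while the call against Saline held under every alternative. In Saline itself, replicate 1 stood far below the other 2 libraries.

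**Figure D4:**
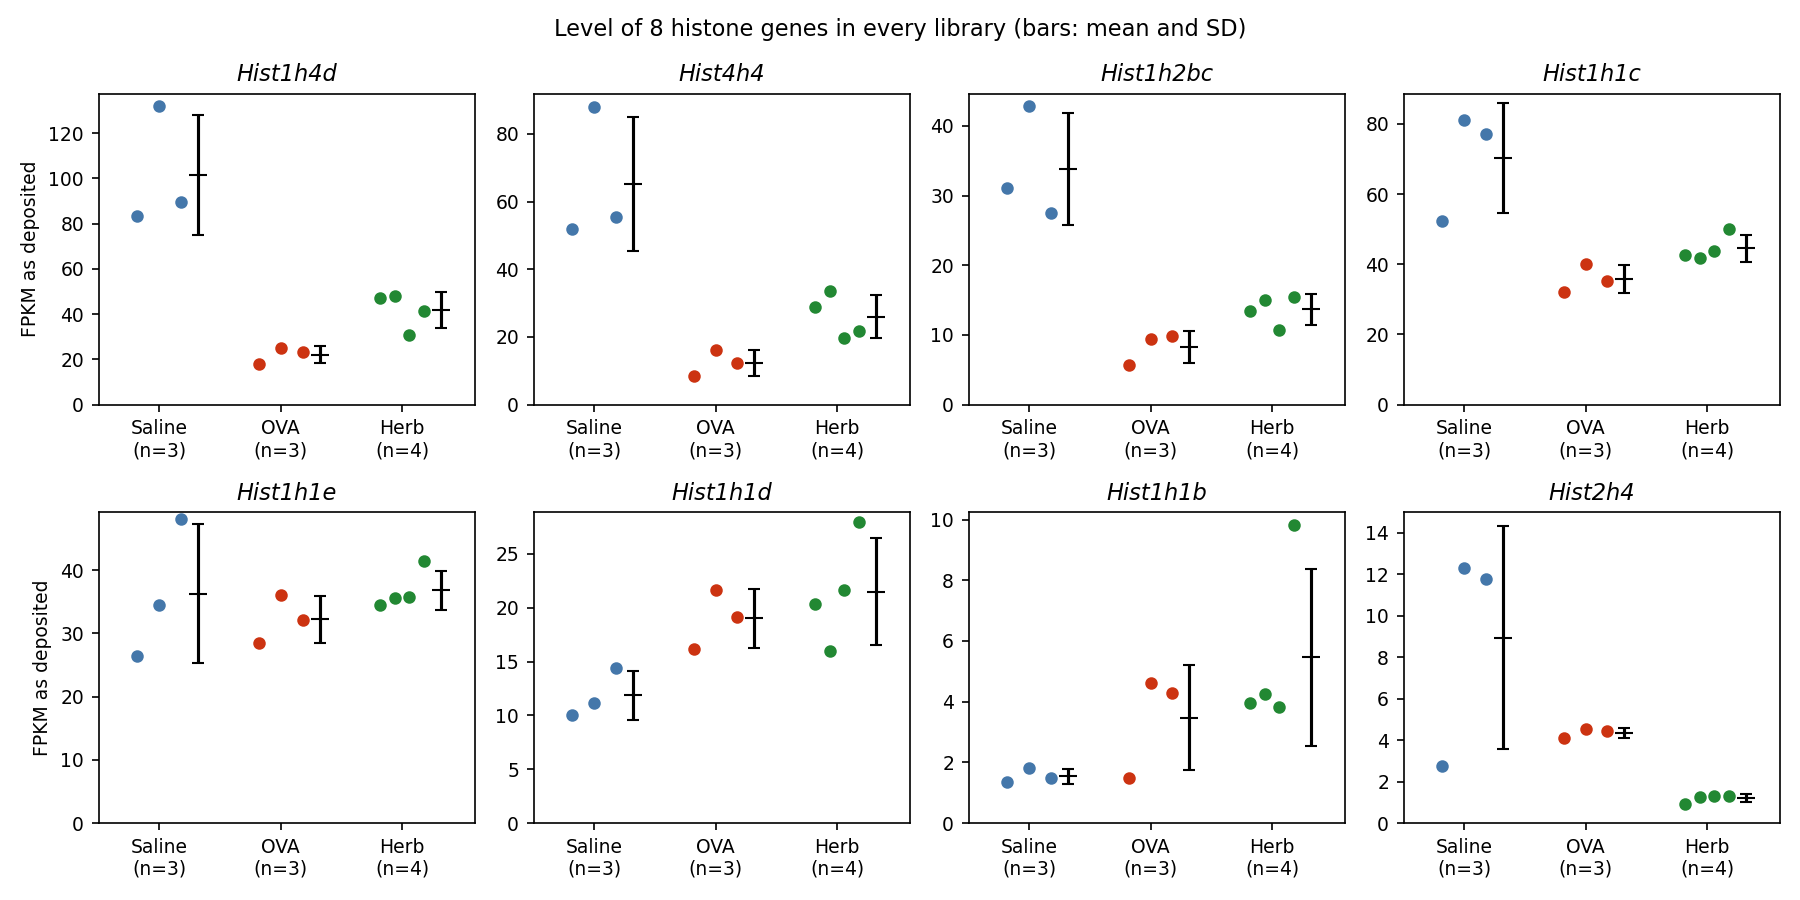
FPKM as deposited (y axes, each from 0) of 8 histone genes in each library, by group (x axes); points are libraries and bars the mean and SD of 3, 3 and 4 libraries. Hist1h4d, Hist4h4 and Hist1h2bc fell in OVA and lay between the groups in Herb, Hist1h1d was higher in OVA and Herb than in Saline, and Hist2h4 was lowest in Herb (0.906 to 1.33 FPKM).

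Herb was compared with Saline to see which histone genes remained away from the control level. Of the 61 histone genes, 8 were lower and 3 higher in Herb by limma adjusted p, against 22.7% and 3.32% of all genes, with a median log2 fold change of -0.15 beside -0.27 over all genes. The lower genes were the H4 genes Hist2h4, Hist1h4c, Hist4h4, Hist1h4d and Hist1h4h, the H2B genes Hist1h2be and Hist1h2bc, and Hist1h1c. Apart from Hist2h4, their log2 fold changes were between -1.42 and -0.62. Hist1h2be, Hist1h4h, Hist4h4 and Hist1h1c lost their call without Saline replicate 2 (adjusted p = 0.10, 0.08, 0.057 and 0.12). Without overlap, 11 of 61 histone genes lay lower in Herb and 5 higher, against 4105 and 778 of all 11205 genes.

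The 3 genes called higher all encode H1. Hist1h1a was at 2.02, 1.87 and 2.46 FPKM in Saline against 4.36, 4.06, 4.26 and 6.64 FPKM for Herb, with a log2 fold change of 0.89 ± 0.19 (SE, adjusted p = 0.0151 by limma). Hist1h1b was at 1.34, 1.82 and 1.47 FPKM and 3.94, 4.25, 3.82 and 9.82 FPKM (log2 fold change 1.26 ± 0.35, limma adjusted p = 0.0311), and Hist1h1d had a log2 fold change of 0.79 ± 0.20 (limma adjusted p = 0.0248). None of the 3 overlapped between the groups, which was a condition for naming genes by their calls. Hist1h1a and Hist1h1d were called under all 4 scalings. After 75th percentile scaling 8 histone genes, 3 of H1 and 5 of H3, were higher and 5 were lower, where 10.6% and 5.11% of all genes were called. Quantile normalization gave 3 higher and 1 lower (3.96% and 3.41% of all genes), and scaling to the protein-coding sum gave 16 and 4 (18.4% and 2.86%). The call of Hist1h1a was lost without Saline replicate 2 (adjusted p = 0.061), that of Hist1h1b without any one Saline library or Herb replicate 3 or 4 (0.051 to 0.088) and that of Hist1h1d without Saline replicate 1 or 2 or Herb replicate 3 or 4 (0.056 to 0.086).

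Genes that work beside these histones were taken from lists. The shares of all genes called as deposited, against which their counts are read, were 57.9% lower and 3.28% higher in OVA vs. Saline, 44% higher and 0.446% lower in Herb vs. OVA, and 22.7% lower and 3.32% higher in Herb vs. Saline. With 75th percentile, quantile and protein-coding sum scaling, 24.1%, 18.6% and 37.8% were higher and 17.2%, 17.1% and 8.81% lower in OVA vs. Saline. For Herb vs. OVA these were 0.348%, 0.5% and 0.625% higher and 0.455%, 0.91% and 4.92% lower. For Herb vs. Saline they were 10.6%, 3.96% and 18.4% higher and 5.11%, 3.41% and 2.86% lower. Most replacement histones are made outside S phase from polyadenylated mRNA, while H2afx, which is also on the list, holds the stem-loop. Of the 10 tested, 7 were lower and 0 higher in OVA vs. Saline (limma, 7 at an unadjusted p under 0.05), 5 were higher in Herb vs. OVA, and 3 were lower and 1, H2afx, was higher in Herb vs. Saline (log2 fold change 0.68, limma adjusted p = 0.0476). The 7, 5 and 3 calls of 10 lie near the shares of all genes. With 75th percentile scaling 3 were lower and 2 higher in OVA vs. Saline, and 0 were called in Herb vs. OVA. H3f3a, which encodes the replacement histone H3.3, went from 60.1, 85.3 and 59.1 FPKM in Saline to 5.40, 9.59 and 11.2 in OVA and 22.1, 29.9, 19.7 and 28.2 in Herb (log2 fold change -2.86 in OVA vs. Saline, limma adjusted p = 0.000149). It stayed called lower in OVA under every alternative. H3f3b fell alike (-1.64, limma adjusted p = 0.000568), from 3.42, 5.65 and 5.41 FPKM to 0.194, 1.30 and 1.27 FPKM, so the H3.3 genes fell where most replication-dependent H3 genes were not called.

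The replacement histone H2A.Z gene H2afz was at 28.7, 39.4 and 29.3 FPKM in Saline, 5.35, 11.8 and 13.8 in OVA and 20.8, 17.3, 18.7 and 24.7 in Herb, with a log2 fold change of -1.64 in OVA vs. Saline (limma adjusted p = 0.00136). H1f0, the H1 subtype of cells that do not divide, went from 13.6 to 14.2 FPKM in Saline down to 3.57 to 7.97 FPKM with OVA (-1.17, limma adjusted p = 0.00251). The fall of both was lost after 75th percentile scaling (adjusted p = 0.15 and 0.602). H1f0 and Hist1h1d thus differed in direction as deposited.

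Of 37 S phase and cell cycle genes tested, 10 were lower and 3 higher in OVA vs. Saline, 9 were higher in Herb vs. OVA, and 3 were lower and 6 higher in Herb vs. Saline. Their median log2 fold change was -0.14 in OVA vs. Saline, and 31 of the 37 lay above the median of all genes. The balance turned after 75th percentile scaling, to 16 higher and 2 lower in OVA vs. Saline (11 and 3 with quantile normalization, 29 and 1 with protein-coding sum scaling), and in Herb vs. OVA none of the 9 calls was left. Mki67, the proliferation marker Ki-67, was at 2.04 to 2.90 FPKM in Saline, 1.97 to 4.07 in OVA and 4.45 to 6.97 in Herb, and was higher in Herb than in Saline (log2 fold change 0.90, limma adjusted p = 0.0194) and than in OVA (0.60, limma adjusted p = 0.0472). It was higher in OVA than in Saline after 75th percentile scaling (1.14, limma adjusted p = 0.00368) and was then not called in Herb vs. OVA. Top2a, a topoisomerase of dividing cells, was at 1.14 to 1.92, 1.97 to 3.66 and 1.64 to 5.68 FPKM, and was not called as deposited in any of the 3 comparisons. The same scaling made it higher than in Saline in both OVA and Herb (1.36 and 1.10, limma adjusted p = 0.0118 and 0.0471). Pcna, the sliding clamp of DNA replication, went the other way, from 16.9, 20.7 and 15.4 FPKM in Saline to 2.62, 4.33 and 5.90 in OVA and 7.50, 8.82, 6.29 and 7.08 in Herb (-1.86 in OVA vs. Saline, limma adjusted p = 0.000202). Rrm2, a subunit of ribonucleotide reductase, and Mcm5, a subunit of the replicative helicase, were at 0.347 to 2.41 and 0.583 to 1.94 FPKM over all libraries and were not called as deposited in any comparison, while Mcm5 was higher in OVA vs. Saline after 75th percentile scaling (0.60, limma adjusted p = 0.0363).

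Of 19 factors of histone mRNA production and turnover tested, 13 were lower in OVA vs. Saline, 11 were higher in Herb vs. OVA and 4 were lower in Herb vs. Saline, with none called the other way. Scaled to the 75th percentile, 4 were lower and 1 higher in OVA vs. Saline (6 and 1 with quantile normalization, 0 and 4 with protein-coding sum scaling), and 0 were higher in Herb vs. OVA under each of the 3 scalings. Slbp, the stem-loop binding protein, was at 6.23, 6.08 and 5.93 FPKM in Saline, 2.04, 3.71 and 3.59 in OVA and 5.17, 4.90, 3.89 and 4.63 in Herb. Its log2 fold change in OVA vs. Saline was -0.81 (limma adjusted p = 0.00305) and turned to 0.12 after 75th percentile scaling. Npat, the coactivator of histone transcription, was at 4.27, 4.73 and 4.67, 1.18, 1.72 and 1.42, and 2.67, 3.17, 2.22 and 2.16 FPKM in the 3 groups. It was lower in OVA as deposited and after 75th percentile scaling (log2 fold changes -1.19 and -0.37, limma adjusted p = 0.000164 and 0.0148). With protein-coding sum scaling Npat, like the other factors, was not called lower.

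Other RNA that ends without a poly(A) tail was in the table too, and 8 such genes were tested. Rmrp, the RNA of an endonuclease, was at 16177 to 30275 FPKM and Rpph1, the RNA of ribonuclease P, at 931 to 2722 FPKM over all libraries, and neither was called in any comparison. Rn45s was higher in OVA than in Saline (log2 fold change 3.09, limma adjusted p = 0.000149) and lower in Herb than in OVA (-1.09, limma adjusted p = 0.0171). Malat1, a nuclear RNA whose end is a triple helix, was at 141 to 2920 FPKM in Saline against 0.228 to 139 FPKM for OVA (-5.38, limma adjusted p = 0.0235), a call lost without Saline replicate 1 or 2 (adjusted p = 0.079 and 0.071) and after 75th percentile scaling (-4.35, adjusted p = 0.0936). Of the 8 genes, 1 was higher and 4 were lower in OVA vs. Saline, 1 was lower in Herb vs. OVA, and 1 was higher and 1 was lower in Herb vs. Saline. The count in OVA vs. Saline turned to 2, 3 and 4 higher with 0 lower under 75th percentile, quantile and protein-coding sum scaling. Of all genes, 24.1%, 18.6% and 37.8% were then higher and 17.2%, 17.1% and 8.81% lower. How much of each histone level came from RNA with and without a poly(A) tail cannot be told apart in these values.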

How the data were processed

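The authors prepared Illumina TruSeq libraries from total lung RNA and deposited 1 table of FPKM, computed per transcript on mm10. The processing notes of the submitters name cutadapt 1.10, HISAT2, StringTie 1.3.3b and edgeR 3.16.5. The labels name a TruSeq RNA kit and the methods of the study a stranded mRNA kit, both of which are made to select poly(A) RNA. Rmrp, which ends without a poly(A) tail, was still at 16177 to 30275 FPKM over all libraries. How well the selection worked in these libraries was not tested. Groups were taken from the labels. Rows were summed per symbol and tested with limma 3.58.1 in R 4.3.3 (lmFit, eBayes with trend) on log2(FPKM + 1), which understates the change of low genes, over 11205 symbols with a mean of at least 1 FPKM, with 3 group means and Benjamini-Hochberg adjustment. A call is an adjusted p under 0.05. Read counts were not used here. Depth, and fragments per gene, were estimated from the steps of the lowest values (38.2% to 45.0% of values under 0.1 FPKM lay within 0.1 of a whole fragment), so they are approximate. The test was run on simulated data with changes in some genes and no shift common to all genes, so that check cannot speak to the scaling. Nothing in the labels says more of the mice than their group, so p-values measure the spread between these samples. The histone genes and lists were chosen with earlier results of these data known. Named are the 12 highest genes, up to 5 calls with the largest change in each direction and comparison whose groups do not overlap, testis-type genes and fixed genes of the lists. In genes named by such calls, the lack of overlap was fixed by the choice and adds no evidence. Hist1h3e, Hist1h3f, Hist1h3d, Hist1h2ap, Hist2h2aa2 and H2afx were named after their values were seen. The alternatives were 3 scalings, pseudocounts 0.1 and 0.5, other filters, transcript rows, no trend, 2 groups only, the replicate block and leaving out each library. Positions and stem-loops are from GENCODE vM21 and RefSeq (GRCm38). Smallest exact permutation p-values would be 0.1 for 3 against 3, so sums were not tested.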

Additional observations from a re-analysis of the deposited data

Results flagged for a closer look

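Among 43 values checked in the 4 Herb libraries, 3 had a library that stood apart from the rest (a gap to the nearest library of 0.851 to 0.927 of the range), and chance sets apart about 1 in 20 groups. Hist1h1a was at 6.64 FPKM and Hist1h1b at 9.82 FPKM in Herb replicate 4, where the other libraries were at 4.06 to 4.36 and 3.82 to 4.25 FPKM. The H4 sum was 153 FPKM in Herb replicate 3 and 208 to 218 FPKM in the others.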

How the results depend on the processing

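Scaling moved many of the counts of calls. The alternatives are given in the order 75th percentile scaling, quantile normalization and scaling to the summed FPKM of protein-coding transcripts. Of all genes, 24.1%, 18.6% and 37.8% were higher and 17.2%, 17.1% and 8.81% lower in OVA vs. Saline. For Herb vs. OVA these shares were 0.348%, 0.5% and 0.625% higher and 0.455%, 0.91% and 4.92% lower. For Herb vs. Saline they were 10.6%, 3.96% and 18.4% higher and 5.11%, 3.41% and 2.86% lower. In OVA vs. Saline, the histone genes called higher were 15, 14 and 27 and those called lower 5, 0 and 5, with medians of 0.155, 0.234 and 0.451 on the log2 scale. In Herb vs. OVA, 0, 0 and 0 were higher and 0, 1 and 1 lower, with medians of 0.00255, -0.0225 and -0.139. In Herb vs. Saline, 8, 3 and 16 were higher and 5, 1 and 4 lower, with medians of 0.222, 0.196 and 0.358. Without a filter on low values, where more genes were tested, 1 histone gene was higher in OVA vs. Saline and 9 were higher in Herb vs. OVA.

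The ratio of the summed histone FPKM became 0.956, 1.30 and 1.25 for OVA over Saline, 0.945, 0.825 and 0.836 for Herb over OVA and 0.903, 1.07 and 1.05 for Herb over Saline. For H1 these ratios were 1.70, 2.70 and 2.23, then 0.764, 0.611 and 0.672, then 1.30, 1.65 and 1.5. For H2A they were 1.02, 1.18 and 1.33, then 1.00, 0.931 and 0.890, then 1.02, 1.10 and 1.18. For H2B they were 0.857, 1.06 and 1.11, then 1.01, 0.926 and 0.900, then 0.866, 0.985 and 1.00. For H3 they were 1.92, 1.86 and 2.50 for OVA over Saline, 0.852 and 0.776 for Herb over OVA under the last 2 scalings, and 1.67 and 1.94 for Herb over Saline under 75th percentile and protein-coding sum scaling. For H4 they were 0.635, 0.924 and 0.836, then 1.06, 0.919 and 0.935, then 0.672, 0.849 and 0.781.

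Some named genes turned sign in OVA vs. Saline. Hist1h1c became 0.204, 0.942 and 0.581, Hist1h4n 0.387, 1.02 and 0.757, Hist2h2bb 0.0311, 0.681 and 0.402 and Slbp 0.121, 0.0381 and 0.431. Under quantile normalization and protein-coding sum scaling Hist2h2aa1 became 0.559 and 0.326, and under the latter alone Hist1h2bb became 0.0329, Hist1h4j 0.291 and H1f0 0.211. In Herb vs. OVA, Slbp became -0.0564, -0.0523 and -0.206, Hist1h2bc -0.0621 and Hist2h2bb -0.150 under quantile normalization and -0.115 and -0.0783 under protein-coding sum scaling, Hist1h4d -0.103 under quantile normalization, and Mki67 -0.0893, Npat -0.0283 and Pcna -0.0110 under protein-coding sum scaling. In Herb vs. Saline, Hist1h1c became 0.224 and 0.0427 under quantile normalization and protein-coding sum scaling.

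Among the lists, the calls after the 3 scalings in OVA vs. Saline were 2, 2 and 3 higher and 3, 3 and 2 lower for replacement histones, 16, 11 and 29 higher and 2, 3 and 1 lower for S phase and cell cycle genes, 1, 1 and 4 higher and 4, 6 and 0 lower for histone mRNA factors, and 2, 3 and 4 higher and 0, 0 and 0 lower for RNA without poly(A). In Herb vs. OVA no gene of these lists was higher, and 2 S phase genes and 1 histone mRNA factor were lower under protein-coding sum scaling, while RNA without poly(A) had 0 lower after 75th percentile scaling, under the other filters and with 2 groups only. In Herb vs. Saline, replacement histones had 2, 0 and 2 higher and 1, 1 and 1 lower, S phase genes 13 and 17 higher under 75th percentile and protein-coding sum scaling and 1 and 1 lower under the other pair of quantile and protein-coding sum scaling, histone mRNA factors 1 and 1 higher and 0, 1 and 0 lower, and RNA without poly(A) 2 and 2 higher and 0, 0 and 0 lower. With 2 groups only, S phase genes had 1 higher in OVA vs. Saline and 5 in Herb vs. OVA, and 6 replacement histones and 2 RNAs without poly(A) were lower in Herb vs. Saline. With the other filters, 1 replacement histone was higher in OVA vs. Saline, 5 S phase genes were with a mean of at least 0.1, and 0 RNAs without poly(A) were without a filter. With pseudocounts of 0.1 and 0.5, 0 replacement histones were higher in Herb vs. Saline.

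For all alternatives other than the 3 scalings, the shares of all genes called are not given. Such counts thus cannot be read as particular to the histone genes or the lists. Leaving out 1 library gave 0 to 4 histone genes higher and 21 to 32 lower in OVA vs. Saline, 4 to 20 higher and 0 to 1 lower in Herb vs. OVA, and 0 to 4 higher and 4 to 8 lower in Herb vs. Saline. The lists moved likewise: S phase genes higher from 1 to 5, 3 to 10 and 0 to 7 over the 3 comparisons, RNA without poly(A) lower from 2 to 4, 0 to 1 and 0 to 2 and higher in Herb vs. OVA from 0 to 2, and in Herb vs. Saline replacement histones higher from 0 to 1 and lower from 2 to 6 and histone mRNA factors higher from 0 to 1 and lower from 1 to 6.

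The groups share replicate numbers, but samples with the same number did not deviate together (correlations from -0.00869 to 0.0953 over 9 pairs, against -0.17 to 0.227 over 24 pairs of different numbers), so the numbers were not taken to pair the samples. With the replicate block, 11 histone genes were higher in Herb vs. OVA and 1 in Herb vs. Saline, 3 replacement histones, 4 S phase genes and 1 RNA without poly(A) were higher in Herb vs. OVA, 1 S phase gene was higher in OVA vs. Saline and 1 in Herb vs. Saline, 1 histone mRNA factor was lower and 0 replacement histones were higher in Herb vs. Saline. The cause of these changes was not tested. Depth limits the genes of 3 or fewer fragments, which were 9 of the 62 with a single model in at least 1 library.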
